A study of Mus musculus with 6 samples.

Results

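The ID family of mouse comprises Id1, Id2, Id3 and Id4, and all 4 genes were measured, by 1 probe set each among 21115 probe sets. The members were taken by gene symbol from the array annotation, as the genes of the family. Expression was measured on an Affymetrix array in primary hepatocytes of C57BL/6 mice, isolated from 3 different animals whose age was not given in the sources used here. Cells of 3 samples received recombinant BMP2 (50 ng/ml) for 24 hours, and 3 control samples did not. All cells were plated on collagen in serum with dexamethasone and later held in serum-free medium, and the BMP2 stock was dissolved in dilute hydrochloric acid. Whether controls received that solvent was not stated. The question was how hepatocytes respond to BMP2, a ligand that the study's title places in the control of iron balance by liver vessels.

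ID proteins are small helix-loop-helix factors that lack the basic region needed to contact DNA. They pair with E proteins, the widely expressed basic helix-loop-helix (bHLH) factors encoded by Tcf3, Tcf4 and Tcf12, and keep them from binding DNA. Bone morphogenetic proteins phosphorylate SMAD1, SMAD5 and SMAD9 through their receptors, and Id1 is a classical direct target of these SMADs. In the liver Id1 is widely used as a readout of BMP signalling beside Hamp, which encodes the iron hormone hepcidin.

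Promoters are shown for the members with an entry in the RefSeq promoter table (build GRCm38.p6), because Id2 and Id3 had mean changes of similar size with BMP2 while Id4 lay near the array's floor. Id2, Id3 and Id4 matched, and Id1 had no entry, so its window is not shown. Each sequence covers the 250 bases before the annotated start, 5′ to 3′ on the gene's strand, and capitals mark the letters GGCGCC, a GC-rich motif that SMAD1 and SMAD5 bind, and GTCT or its complement AGAC, the core SMAD-binding letters.
Id2, chr12:25096093-25096342, minus strand: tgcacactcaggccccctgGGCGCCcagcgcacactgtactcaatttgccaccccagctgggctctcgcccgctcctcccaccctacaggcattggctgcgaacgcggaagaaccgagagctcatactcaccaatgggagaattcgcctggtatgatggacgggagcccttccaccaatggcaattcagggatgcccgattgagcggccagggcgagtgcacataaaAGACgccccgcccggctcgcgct
Id3, chr4:136143572-136143821, plus strand: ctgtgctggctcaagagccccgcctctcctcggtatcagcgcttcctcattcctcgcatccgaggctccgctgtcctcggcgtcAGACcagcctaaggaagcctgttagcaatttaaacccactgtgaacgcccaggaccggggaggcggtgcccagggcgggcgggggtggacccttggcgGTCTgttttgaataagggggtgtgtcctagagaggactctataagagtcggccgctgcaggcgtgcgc
Id4, chr13:48260866-48261115, plus strand: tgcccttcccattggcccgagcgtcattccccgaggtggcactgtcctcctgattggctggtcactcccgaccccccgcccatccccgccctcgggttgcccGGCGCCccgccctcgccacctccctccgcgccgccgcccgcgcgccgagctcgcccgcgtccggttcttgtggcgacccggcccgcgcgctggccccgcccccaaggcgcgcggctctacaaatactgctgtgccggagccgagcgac

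The 3 windows did not share 1 arrangement of these letters. Both strands were searched. GGCGCC occurred once in Id2, beginning 231 bases before the start, and once in Id4, beginning 148 bases before it, and these letters were not in the Id3 window. GGCGCC was held by 9.59% of all 32851 promoters in the same window. GTCT occurred once in Id2, 2 times in Id3 and 0 times in Id4, against 82.9% of all promoters with at least 1 copy. CCAAT, the letters of the CCAAT box, occurred 3 times in Id2 and 2 times in Id4 but 0 times in Id3, where 33.8% of all promoters held it once or more and 10.1% at least 2 times. Id3 held TATAA, the core of the TATA box, beginning 29 bases before the start, as 22.8% of promoters did somewhere in the window. CANNTG, the E-box that E proteins bind, occurred once in Id2 and 0 times in Id3 and Id4, against 66.2% of all promoters. GC content was 62.8% in Id2, 62.8% in Id3 and 75.6% in Id4, with a median of 52.4% over all promoters. These matches describe letters and do not show that a factor was bound, and their part in the response to BMP2 was not tested.

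The deposited values were log2 expression levels, which ran from 6.35 to 14.0 over all samples, and the sample medians lay between 6.80 and 6.81. Levels under 7 were treated as near the floor of the array, where changes are compressed, and 57.9% of probe sets had a mean below this level. Hepatocyte genes were high, with list means of 11.56 to 11.67 in control and 11.75 to 11.90 in BMP2 samples over 10 markers, and Alb, the albumin gene, at 13.81 and 13.78. Cps1, a urea cycle enzyme of hepatocytes, was an exception at 6.90 in control and 6.99 in BMP2 samples. The control means of Ttr, Apoa1, Apob, Fgb, Trf and Serpina1a, which encode plasma proteins, lay between 12.08 and 13.80, and Tat, an enzyme of tyrosine breakdown, stood at 7.51. Of the 10 markers Hnf4a, a liver transcription factor gene, rose (0.82 ± 0.06, limma adjusted p = 0.0097) and 9 did not pass. ID genes are also expressed in other liver cells, so markers of those cells were examined. All 6 samples lay below 7 for 9 of 10 endothelial markers (Cdh5 reached 7.10 and 7.21 in control and BMP2 samples), 9 of 10 Kupffer cell markers (Cd68 at 7.75 and 7.41), 8 of 10 stellate cell markers (Acta2 at 8.41 and 7.92) and 9 of 9 lymphocyte markers (Cd3e was highest at 6.82 in both). Of 5 cholangiocyte markers 3 lay below 7, while Krt19 stood at 8.77 and 8.25 and Sox9 at 9.94 and 10.40. Of all 21115 probe sets at least 2600 had an unadjusted limma p below 0.05, which is the background for such counts in a list. None of these 44 markers of other cells passed in limma (3 had an unadjusted p below 0.05), and their part in the results was not tested. In a model with replicate number as a further term, the replicate block, 1 of them, Sox9, was higher (adjusted p = 0.039), as was the hepatocyte marker Ttr (adjusted p = 0.017), where 1.68% of all probe sets were higher. In bulk RNA, fewer cells of a type and less RNA per cell cannot be told apart.

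With BMP2, 2 of the 4 members passed the test, Id1 and Id3, and both rose. Id2 differed by an amount as large as Id3 and did not pass, and Id4 lay near the floor in every sample. The test was limma's, unpaired and two-sided. A gene passed when its p, adjusted by Benjamini and Hochberg's method across the 21115 probe sets, was below 0.05. Of all probe sets 1.19% passed, 0.616% as higher and 0.573% as lower. The BMP2 and control values of each of the 4 members did not overlap, the BMP2 values being higher, which was also so for 8.42% of all probe sets. By size of increase Id1, Id2 and Id3 ranked 2, 4 and 5 among all probe sets, and they were among the 0.156% of probe sets with a rise of 2-fold or more.

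**Figure D1:**
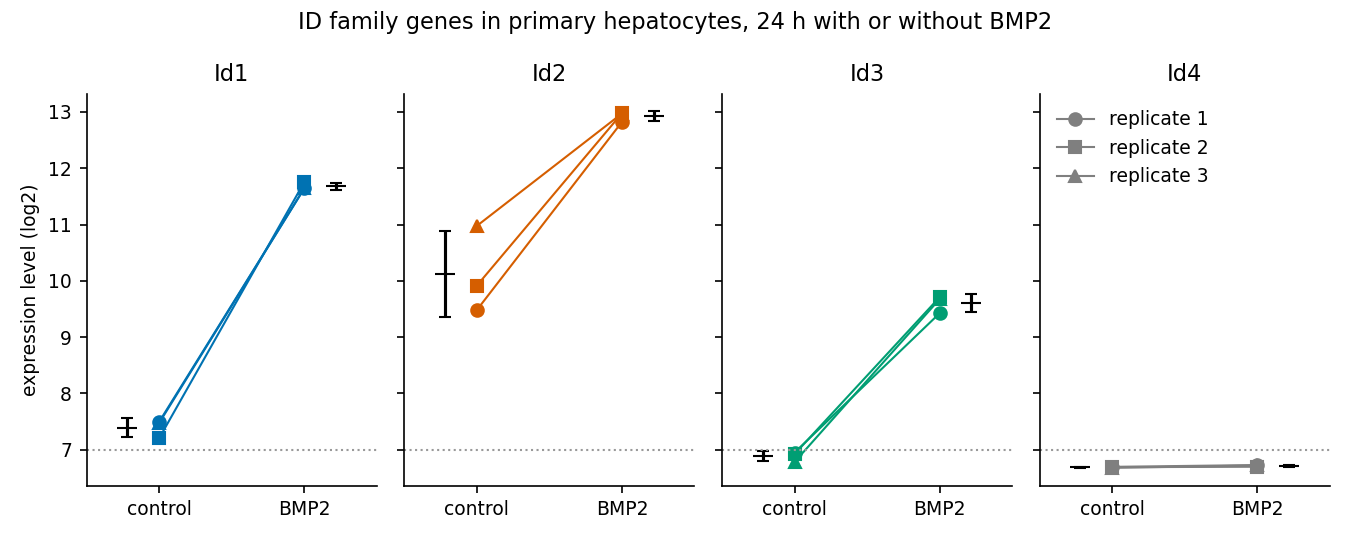
Expression level (log2) of each ID gene in control and BMP2 samples. Symbols joined by a line are samples of the same replicate number, black bars are the mean ± SD (n = 3), and the dotted line marks 7, below which levels were treated as near the floor. Id2 has the widest spread among controls, and Id4 stays near 6.7 in all 6 samples.

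Id1 encodes the family member most often used to report BMP activity. Its log2 level was 7.50, 7.21 and 7.48 in control replicates 1, 2 and 3 and 11.64, 11.75 and 11.64 in the BMP2 replicates. Every BMP2 sample lay at least 4.15 above the highest control, and the samples of each group lay close together. Id1 rose by 4.29 ± 0.09 on the log2 scale (difference ± SE), or 19.5-fold with a 95% interval of 16.7 to 22.8, and its limma adjusted p of 0.00094 came with the smallest raw p of all probe sets. Within replicate numbers the fold changes were 17.7, 23.4 and 18.0. The controls lay only a little above 7, so the array can understate this change. With both samples of replicate 1 left out, the limma adjusted p of Id1 was 0.059, with a difference of 4.36.

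Id3 encodes a close relative of ID1, and Id1 and Id3 are known to compensate for each other in vascular development of the mouse. Its log2 level was 6.95, 6.92 and 6.78 in controls and 9.42, 9.71 and 9.68 in BMP2 samples. All 3 controls lay below 7 and every BMP2 sample lay well above it, so the array can understate the change. Id3 rose by 2.72 ± 0.09, or 6.58-fold with a 95% interval of 5.60 to 7.73 (limma adjusted p = 0.0019). The changes within replicates 1, 2 and 3 were 2.47, 2.79 and 2.89 on the log2 scale. With both samples of replicate 2 left out, the limma adjusted p was 0.112 at a difference of 2.68.

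Id2 encodes the member known to bind the retinoblastoma protein in addition to E proteins. Its log2 level was 9.48, 9.92 and 10.98 in control replicates 1, 2 and 3 and 12.82, 12.98 and 12.97 in the BMP2 replicates. Control replicate 3 stood 1.06 above the next control, while the BMP2 samples lay within 0.15 of each other. The groups did not overlap, with a gap of 1.85 between the highest control and the lowest BMP2 sample. Id2 differed by 2.80 ± 0.39 (6.96-fold, 95% interval 3.48 to 13.9) and had a limma adjusted p of 0.054. The changes within replicates were 3.34, 3.06 and 2.00, which correspond to 10.1-fold, 8.34-fold and 3.99-fold. With control replicate 3 left out the difference was 3.22 and the limma adjusted p 0.033, and with both samples of replicate 3 left out they were 3.20 and 0.045. The call also turned with the probe sets tested and the variance model. The limma adjusted p was 0.0095 when probe sets with a mean over all samples below 7 were left out. There 2.56% of the tested probe sets were higher, a share that includes genes kept only through their BMP2 samples. With an intensity trend in the variance the limma adjusted p was 0.0059, where 1.03% of probe sets were higher.

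Id4 encodes the member best known from neural and mammary tissue. Its log2 level was 6.70, 6.69 and 6.68 in controls and 6.73, 6.70 and 6.72 in BMP2 samples. The highest control and the lowest BMP2 sample differed by 0.002, and all 6 values lay below 7. The difference was 0.03 ± 0.01, with a 95% interval of -0.0008 to 0.056 (limma adjusted p = 0.42). At this level a change can be hidden by the floor of the array, so these values do not show that Id4 was unaffected.

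**Figure D2:**
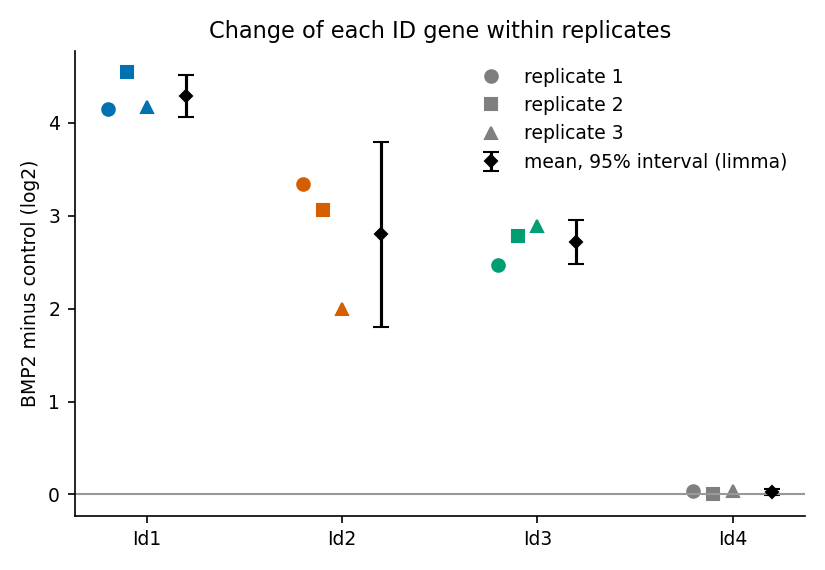
BMP2 minus control (log2) of each ID gene within each replicate number (coloured symbols) and the mean change with its 95% limma interval (black). Id1 lies above 4 in all replicates, Id3 between 2.47 and 2.89, Id2 between 2.00 and 3.34, and Id4 between 0.008 and 0.042.

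The changes of the members were ordered Id1, Id2, Id3 and Id4 by size. To ask whether 2 members changed by unequal amounts, the log2 ratio of the members within each sample was compared between BMP2 and control samples with a two-sided exact permutation test, for 6 pairs of members. With 3 against 3 samples this test cannot give a p below 0.10, so it cannot pass the threshold. Id1 changed by 1.57 ± 0.26 more than Id3 on the log2 scale (mean and SD of 3 replicates), with excesses of 1.67, 1.76 and 1.27, and the exact permutation p was 0.10 (adjusted 0.12). Id1 changed by 1.49 ± 0.68 more than Id2, with excesses of 0.81, 1.49 and 2.17 (exact permutation p = 0.10, adjusted 0.12). The excess over Id2 thus ranged more widely than that over Id3. Id2 and Id3 did not differ beyond their spread, with a mean of 0.08 ± 0.90 and single values of 0.87, 0.27 and -0.90 (exact permutation p = 1). Their order is therefore not settled, and it turned when replicate 1 (-0.31) or replicate 2 (-0.02) was left out. Near the floor the changes of Id3 and Id4 can be understated, so the excess of another member over them can be overstated.

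Id1 stood beside the other strong targets of BMP signalling, as the plot of change against control level shows. Of 16 measured BMP-SMAD targets outside the ID family 5 rose, none fell and 11 did not pass in limma, against 0.616% of all probe sets higher. This list was chosen with earlier results of these data known, so its comparison with all probe sets is a description and not a test. The median difference of the list was 0.06, beside a median of 0.0007 over all probe sets, and 8 of the 16 had an unadjusted p below 0.05. At least 2600 of all 21115 probe sets also had an unadjusted limma p below 0.05. The BMP2 values of 8 of the 16 lay above all controls, against 8.42% of all probe sets, and 8 members were below 7 in all samples, where a change can be hidden. The risers were Hamp (5.62 ± 0.21), Atoh8, which encodes a bHLH factor (4.26 ± 0.10), the inhibitory SMAD genes Smad7 (1.62 ± 0.07) and Smad6 (0.24 ± 0.03), and Smad9, a signal-transducing SMAD (1.03 ± 0.07), with limma adjusted p between 0.0011 and 0.030. All 3 controls of Atoh8, Smad9 and Smad6 lay below 7, so these changes can be understated. Smad6 reached no more than 7.16 with BMP2. Bambi, a pseudoreceptor, differed by 0.26 ± 0.05 (limma adjusted p = 0.10), Gata2 by 0.06 (0.18) and Hey1 by 0.05 (0.30). The number of risers was 3 without control replicate 2, 3 without both samples of replicate 1 or of replicate 3, and 0 without both samples of replicate 2, when 2 probe sets passed in all.

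**Figure D3:**
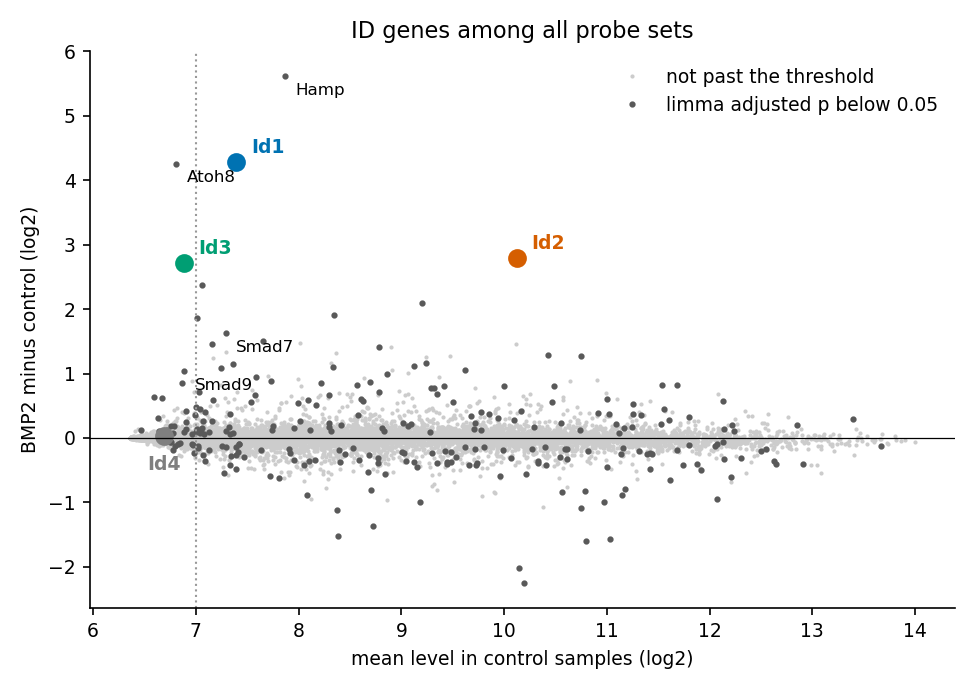
BMP2 minus control (log2) of all 21115 probe sets against their mean control level (log2). Coloured points are the ID genes, dark points passed at a limma adjusted p below 0.05, and the dotted line marks a control level of 7. Id1, Id2 and Id3 lie far above the bulk of genes at control means of 7.39, 10.12 and 6.88, while Id4 lies at 0.03.

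Apart from Smad9, which was counted among the targets, none of 13 genes for BMP receptors, co-receptors and signal-transducing SMADs passed in limma (3 had an unadjusted p below 0.05), and their median difference was 0.006. The smallest p belonged to Hjv, which encodes the BMP co-receptor hemojuvelin (0.65 ± 0.10, limma adjusted p = 0.065). The type I receptor genes Acvr1 (0.13 ± 0.04, adjusted p = 0.23) and Bmpr1a (-0.13 ± 0.05, adjusted p = 0.37) came next.

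Of the genes for E proteins, which ID factors bind, none passed in limma. The mean of each of the 3 E protein genes was slightly lower with BMP2. Tcf12 differed by -0.15 ± 0.03 (limma adjusted p = 0.087, and 0.052 with the replicate block). Tcf3 differed by -0.07 ± 0.09 (limma adjusted p = 0.92) and Tcf4 by -0.04 ± 0.06 (adjusted p = 0.93). The groups of Tcf3 and Tcf4 overlapped, and both were higher with BMP2 in replicate 3 (0.016 and 0.031), so a shared fall is not shown. The level of Tcf12 was 10.55 in control and 10.40 in BMP2 samples. Apart from Atoh8, counted among the targets, none of 21 other bHLH genes passed (3 had an unadjusted p below 0.05), of which 17 lay below 7 in all samples, and their median difference was -0.008. Bhlhe41, a clock-linked repressor, differed by -0.33 ± 0.06 (limma adjusted p = 0.079) and fell with the replicate block (adjusted p = 0.024), where 1.64% of all probe sets were lower. Hes1 (0.18 ± 0.05, limma adjusted p = 0.26) and Hes6 (-0.13 ± 0.05, adjusted p = 0.40), members of the HES repressor family, followed. With an unadjusted limma p of 0.0487, Hes6 ranked 2600 by p among the 21115 probe sets, so unadjusted values below 0.05 were common.

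Of 15 further genes whose proteins have been reported to bind ID proteins, none passed in limma (2 had an unadjusted p below 0.05), and the median difference was -0.01. Those with the smallest p were Rbl1, a relative of the retinoblastoma gene (-0.06, limma adjusted p = 0.35), Srebf1, a regulator of lipid synthesis (0.06, adjusted p = 0.39), and Elk1, an ETS factor (-0.04, adjusted p = 0.65). Rb1 itself differed by 0.07 ± 0.05. None of 4 genes of ID protein turnover passed in limma (0 had an unadjusted p below 0.05), among them Usp1, whose product removes ubiquitin from ID proteins (0.02 ± 0.07), Wdr48, its cofactor (0.07 ± 0.05), and Smurf2, a ubiquitin ligase (-0.02 ± 0.02). None of 4 CDK inhibitor genes known as E protein targets passed in limma, and 0 had an unadjusted p below 0.05. Cdkn1a, which encodes p21, stood at 12.96 in control and 12.88 in BMP2 samples (-0.08 ± 0.05, limma adjusted p = 0.63), and Cdkn1c, Cdkn2a and Cdkn2b had control means below 7.

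Genes with the pattern most like each member were found by the root mean square distance over the 6 samples, after each gene was centred on its own control mean. Genes chosen in this way are described without a test. Atoh8 was nearest to Id1, at a distance of 0.12, and Hamp followed at 0.96. All 3 controls of Atoh8 lay below 7 (6.88, 6.76 and 6.78), so its change can be understated and the likeness in size to Id1 is limited by the floor. Atoh8 changed by 3.97, 4.48 and 4.32 in replicates 1, 2 and 3, where Id1 changed by 4.15, 4.55 and 4.17. Id3 (1.12), Id2 (1.14) and Rdh7, a retinol dehydrogenase gene (1.40), lay farther away. Nearest to Id2 were Id3 (0.50), Akr1c14, a hydroxysteroid dehydrogenase gene (0.60), Rdh7 (0.67), Nrn1 (0.82) and Abcb4, the phospholipid transporter gene of the bile canaliculus (0.88). Nearest to Id3 were Rdh7 (0.39), Akr1c14 (0.48), Id2 (0.50), Abcb4 (0.63) and Nrn1 (0.64). The distance follows mainly the size of the change. With Pearson's correlation in its place 2 of the 5 genes nearest to Id1 were shared, and 0 of the 5 for Id2 and for Id3.

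**Figure D4:**
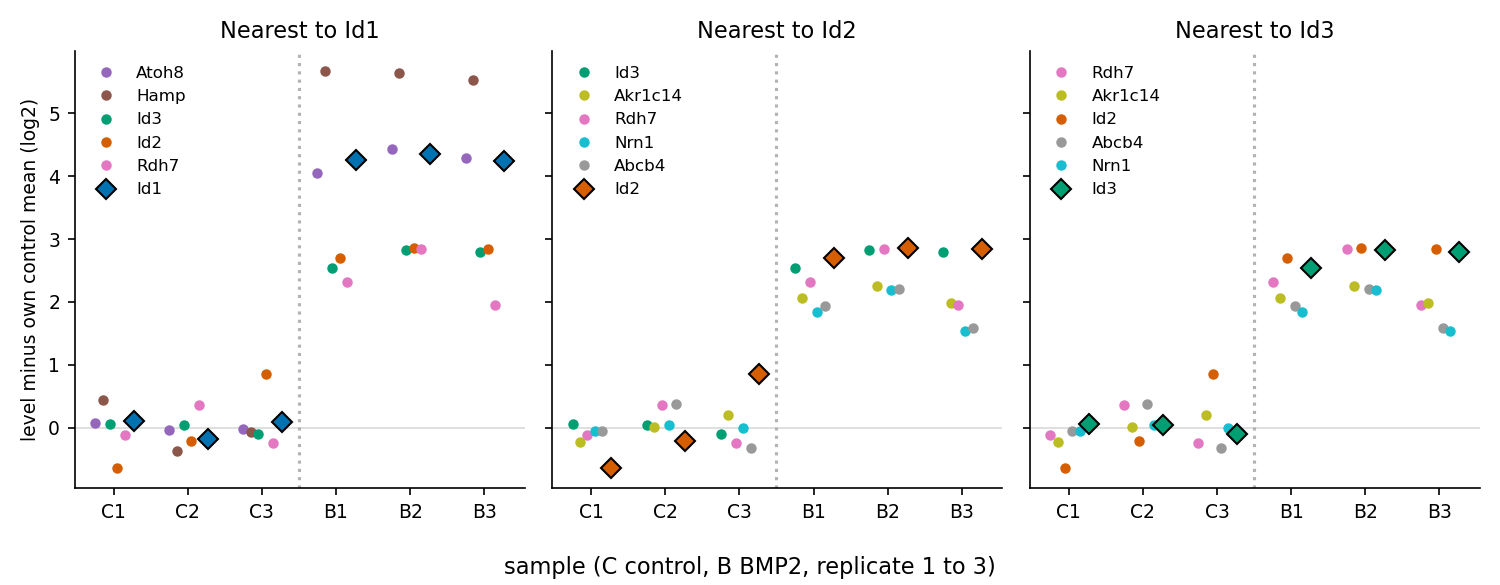
Level minus the gene's own control mean (log2) in each sample, for Id1, Id2 and Id3 (diamonds) and the 5 genes nearest to each (dots). Atoh8, whose controls lie near the floor, follows Id1 within a distance of 0.12, and the control samples of Id2 spread more widely than those of its nearest genes.

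The call of Id2 turned in 4 of the 14 alternatives and those of Id1 and Id3 in 1 each, as the plot of adjusted p by model shows. Id1 and Id3 passed in all 6 fits with 1 sample left out, with limma adjusted p up to 0.010 for Id1 and 0.026 for Id3. Id2 passed in 1 of these 6 fits, with limma adjusted p between 0.033 and 0.21, although its difference was between 2.48 and 3.22 in each of them. Id4 passed in 0 of 6.

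**Figure D5:**
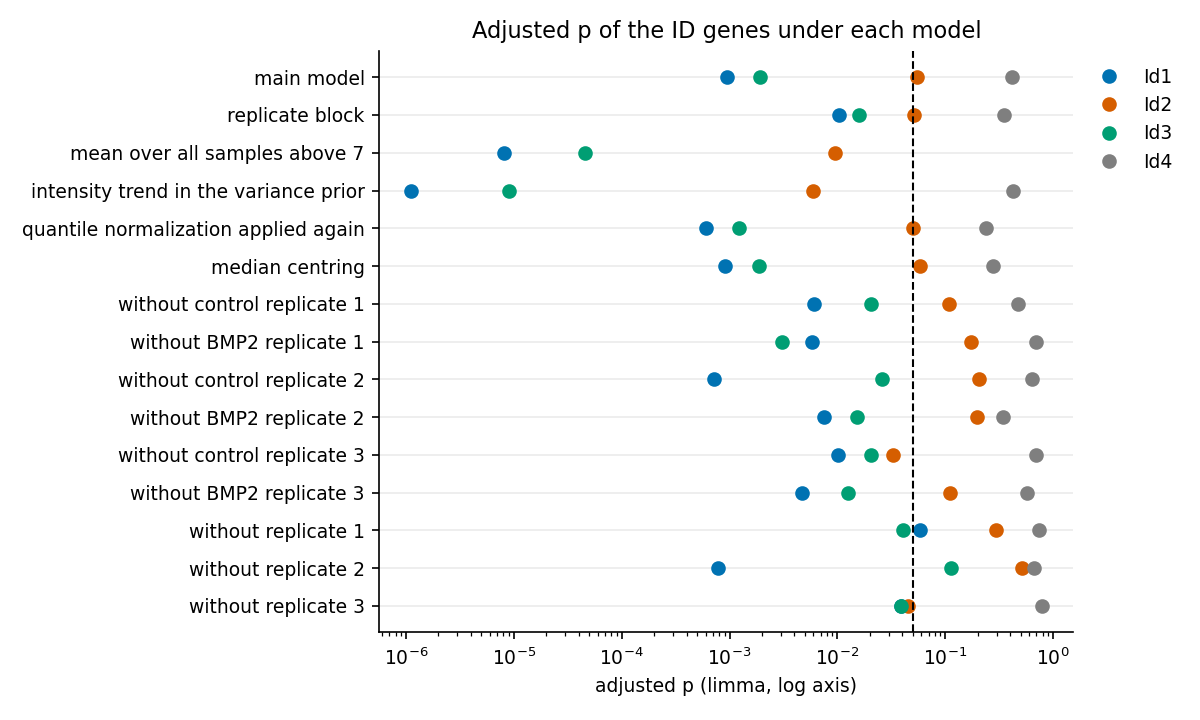
Limma adjusted p (log axis) of each ID gene in the main model and the alternatives. The dashed line marks 0.05. Id2 lies on either side of the line, at 0.054 in the main model and 0.0059 with an intensity trend, and Id4 lies to the right of it wherever it was tested.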

How the data were processed

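Expression was measured in 6 array samples. The authors deposited a log2 value for each probe set in each sample, from RMA (robust multi-array averaging) per the submitters' processing notes; its version is not given in the sources used here. Of 21115 probe sets 20405 had a gene symbol in the platform annotation. The deposited values were tested as they stood with limma 3.58.1 in R 4.3.3. The fit was also run on simulated data, where 4.49% of its calls were false. Those data had independent noise, without the likeness of same-numbered samples or the floor of the array. An array holds no counts, so the number of arrays limits the precision.

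The members and gene lists were chosen with earlier results of these data known. The named genes are the 4 members, the 5 genes nearest to Id1, Id2 and Id3, of each list the members past the threshold and up to 3 others with the smallest p, all E proteins, hepatocyte markers and the highest marker of other cells; Rb1, Usp1 and other partners beyond these were named for their role.

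The replicate numbers were taken to pair the samples for the changes within replicates and for the replicate block. The design names 3 mice, and same-numbered samples deviated together from their group means (r over all probe sets 0.48, 0.58 and 0.61). The main fit left the pairing out, because the labels state no paired analysis, so its SE and intervals are those of an unpaired comparison. The alternatives were a replicate block, a filter on dim probe sets, an intensity trend, renewed quantile normalization, median centring, and leaving out samples. The filter kept probe sets with a mean above 7 over all 6 samples, BMP2 samples included. Id3, Atoh8, Smad9 and Smad6, with controls below 7, were thus kept only through their BMP2 samples.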

Additional observations from a re-analysis of the deposited data

How the results depend on the processing

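Id1, Id2 and Id3 were higher with BMP2 in all 14 alternatives, and Id4 in the 13 that tested it, since the filter on dim probe sets removed it. This direction was largely fixed in advance and is no added support. The BMP2 values of each member lay above all its controls, so leaving out samples could not turn it. The replicate block, the filter and the trend leave the difference of a tested gene unchanged. With the replicate block the limma adjusted p was 0.010 for Id1, 0.052 for Id2, 0.016 for Id3 and 0.35 for Id4, so the pairing changed no call of a member. Id2 (2.80 in the main model) passed at the same difference with the filter (mean above 7 over all samples) and with an intensity trend. Because the filter's mean includes the BMP2 samples, its counts are a description. With samples left out the difference of Id1 was 4.16 to 4.36, that of Id2 2.48 to 3.22 and that of Id3 2.63 to 2.84. The difference between the changes of Id2 and Id3 (0.08) turned without replicate 1 (-0.31) and without replicate 2 (-0.02), and was 0.57 without replicate 3. The number of probe sets past the threshold was 251 (130 higher) in the main model, 702 (355) with the replicate block, 443 (227) with the filter and 438 (217) with the trend, and from 2 (1) to 223 (125) with samples left out. The count of BMP-SMAD targets was 0 to 4 with samples left out and 5 or 6 otherwise. Leaving out samples leaves fewer degrees of freedom, and a fit without 1 sample keeps its mouse in 1 group alone. The cause of the shifts between models was not tested. Signal over background limits Id4 and, among others, the controls of Id3, Atoh8, Smad9 and Smad6. To a lesser degree it can limit the controls of Id1, which lay only a little above 7.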

Other observations

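The spread of Id2 among control samples was chosen for description after its values were seen. Its control range was 1.49 on the log2 scale, and 4 of 21115 probe sets (0.0189%), Id2 included, had a control range at least as wide. Of these 4, only Id2 had BMP2 samples within a range of 0.15. The control range of Id2 was 9.68 times its BMP2 range. Control replicate 3 exceeded both other controls by 1.06 or more for 1 probe set, that of Id2, and lay below both by as much for 4. For Id1 the control range was 0.29 and the BMP2 range 0.11, whereas for Id3 they were 0.17 and 0.29.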
